A study of Caenorhabditis elegans with 6 samples.

Results

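The genes described here make the small-molecule neurotransmitters of *Caenorhabditis elegans* and load them into synaptic vesicles. They are the choline acetyltransferase gene *cha-1*, the glutamic acid decarboxylase gene *unc-25*, the tyrosine hydroxylase gene *cat-2*, the tryptophan hydroxylase gene *tph-1*, the aromatic amino acid decarboxylase gene *bas-1* and the tyrosine decarboxylase gene *tdc-1*, with the vesicular transporter genes *unc-17* (acetylcholine), *eat-4* (glutamate), *unc-47* (GABA) and *cat-1* (monoamines). They were chosen by gene symbol: 10 genes of the 17118 that had a probe set annotated to a single gene. The brightest probe set of a gene, by its mean on all 6 arrays, gives the main value, and any others are given beside it.

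RNA was compared between fed first-stage larvae (L1) and embryos of mixed ages, both of the wild-type strain N2, on 3 arrays per stage. The larvae had hatched from bleached eggs over 24 h in M9 buffer at 20 °C and were then fed *Escherichia coli* HB101 at 10 mg/mL for 3 h in liquid culture, at 10 worms per µL. The embryos came from bleached gravid adults grown on agar plates with the same bacterial strain, and their arrays were a re-analysis of an earlier series. Stage, hatching in buffer, feeding and array set therefore cannot be told apart. The embryo titles all carry the label XX and the same number code, and differ only in a final letter. Whether the arrays of a stage came from separate cultures is not stated, so the p-values reflect only how these arrays vary, which may be technical variation. One label of the L1 samples (their source) speaks of embryos, but titles, descriptions and stage all give L1.

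As background, a neuron's transmitter is fixed by which synthesis enzymes and which vesicular transporter it makes. Acetylcholine, glutamate and GABA act as fast transmitters at most worm synapses, and GABAergic and cholinergic motor neurons act on body wall muscle. Serotonin, dopamine, tyramine and octopamine are made in few neurons and modulate feeding, egg laying and locomotion. The acetylcholine genes form an unusual locus, in which *unc-17* lies inside *cha-1* and shares its first exon.

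Values are RMA expression values in log2 units, and differences are fed L1 minus mixed embryo, tested with limma across all 17118 genes with Benjamini-Hochberg adjustment at 0.05. Arrays of a stage correlated at r of at least 0.9925 over the probe sets (genes are not independent replicates), and array medians lay between 6.004 and 6.10. A value of 5.43, the maximum over 32 foreign control probe sets (bacterial and yeast sequences), served as the background level. Hybridisation control probe sets differed between the array sets, with means of 6.78 on L1 arrays and 4.56 on embryo arrays for 14 *bio* probe sets, and 11.33 and 4.61 for 4 *cre* probe sets. Mean levels of 21 neuronal markers were 9.30 to 9.39 on L1 arrays and 7.81 to 7.90 on embryo arrays, and 5 germline markers lay at 6.17 to 6.27 and 8.91 to 9.31. Markers of other tissues differed too: 6 of 7 intestinal, 6 of 6 body wall muscle, 3 of 3 pharyngeal muscle and 2 of 3 glial markers rose, with medians of 2.36, 1.27, 2.80 and 1.73, while 4 of 6 epidermal markers fell and 1 rose, with a median of -0.82. Over all genes, 33.2% were higher and 31.2% lower. The part of these marker differences in the results below was not tested. In whole animals, fewer cells of a type and less RNA per cell cannot be told apart.

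Of the 10 transmitter genes, 9 were higher and 1 was lower in fed L1 by limma, against 33.2% of all genes higher and 31.2% lower. Every L1 array lay above every embryo array for 9 of them (37.8% of all genes) and below for 1 (32.8% of all genes). At least 2-fold differences were found for 6 that rose (17% of all genes) and 1 that fell (17.5% of all genes). The median difference was 1.91, against 0.05 over all genes. The 5 genes of acetylcholine, glutamate and GABA had a median of 2.57, and the 5 monoamine genes one of 0.77. These medians were not tested against each other. The first includes *unc-17* and *cha-1*, which share a locus. The monoamine median includes *cat-2*, read at background, and *tdc-1*, whose main and next brightest probe sets gave -1.05 and 1.59. When arrays were instead centred on ribosomal protein genes, 8 of the 10 genes were higher and 1 was lower. That centring brought the median of all genes to -0.30, and 28.7% of the genes that passed were then higher in L1, against 51.6% without it.

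**Figure D1:**
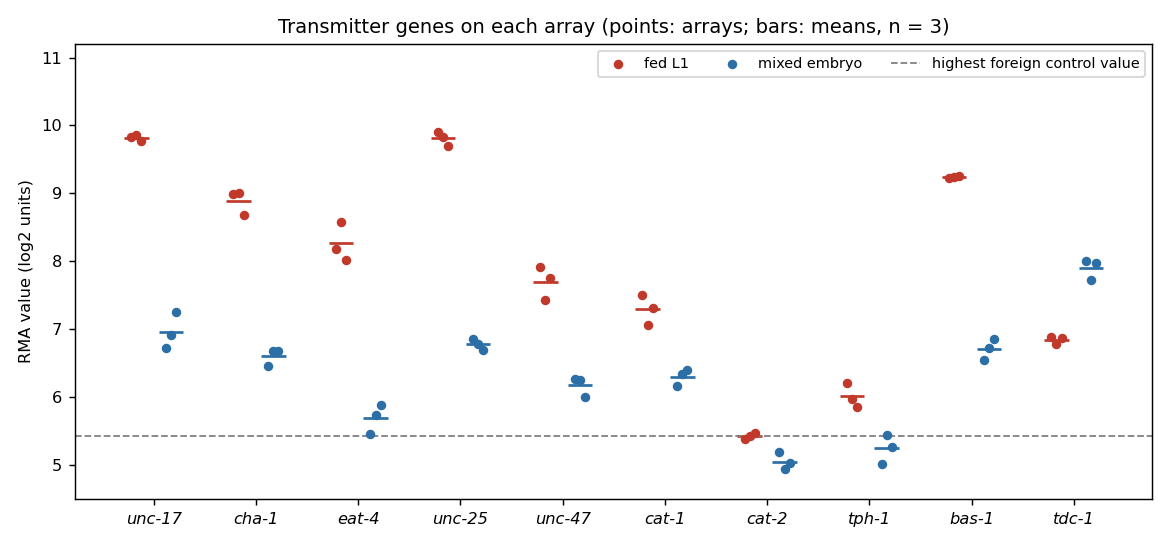
RMA values (log2 units) of the main probe set of each gene on each array, with fed L1 at the left of each pair and mixed embryo at the right, bars at the means of 3 arrays and a dashed line at 5.43, the highest foreign control value. No gene's stages overlap; *tdc-1* is the only one with the L1 arrays below, and *cat-2* lies at or near the line in both stages.

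The genes of acetylcholine, the excitatory transmitter of the neuromuscular junction, were both higher in L1. *unc-17*, the vesicular acetylcholine transporter gene on chromosome IV, had values of 9.84, 9.86 and 9.77 on L1 arrays, against 6.72, 6.91 and 7.25 on embryo arrays. *cha-1*, which encodes the enzyme that makes acetylcholine from choline and acetyl-CoA, had 8.98, 9.01 and 8.69 on L1 arrays, against 6.45, 6.67 and 6.68 on embryo arrays. In both genes the lowest L1 array stood more than 1 log2 unit above the highest embryo array. *unc-17* rose by 2.86 (SE 0.13, n = 3 per stage, limma adjusted p = 1.25e-08), a 7.27-fold difference, and *cha-1* rose by 2.29 (SE 0.11, adjusted p = 2.81e-08), a 4.90-fold difference. Only 3.84% of all genes rose by more than *unc-17*.

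All probe sets of this locus were of designs that allow matches to related sequences or transcripts. Whether probe sets of *unc-17* and *cha-1* detect RNA of the other gene was not tested, so their rises may not be separate results. The other probe sets of *unc-17* gave rises of 2.19 and 1.85, and the other one of *cha-1* gave 2.48. The main probe set of *unc-17* thus rose more than that of *cha-1*, whereas its other probe sets rose less than either probe set of *cha-1*. On the same array, *unc-17* minus *cha-1* was 0.93 ± 0.14 in L1 and 0.36 ± 0.19 in embryos for the main probe sets (SD, n = 3 per stage). That is a difference in change of 0.57 (2-sided exact permutation test over arrays, p = 0.1, the smallest value that 3 arrays against 3 allow; p = 0.2 without L1 replicate 3). With the mean of each gene's probe sets it was -0.08 (exact permutation p = 0.4).

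*eat-4* encodes the vesicular glutamate transporter, which defines glutamatergic neurons and was named for a defect in feeding. Its values were 8.19, 8.58 and 8.02 on L1 arrays, against 5.46, 5.74 and 5.88 on embryo arrays, close above the background level in embryos. It rose by 2.57 (SE 0.15, adjusted p = 1.17e-07), a 5.92-fold difference. A second, dimmer probe set had 6.69, 6.57 and 6.57 on L1 arrays and 4.87, 5.10 and 5.13 on embryo arrays, a rise of 1.58. All its embryo values were at background, so the size of that rise is uncertain. *eat-4* overlaps *ZK512.7* and *ZK512.2* in the WBcel235 annotation, whose probe sets differed by 0.01 to 0.25 and did not pass. The probe sets of *ZK512.7* were under the background level on all arrays, so a change of that gene could not be read.

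The GABA genes were both higher in L1, by different amounts. *unc-25*, whose product makes GABA from glutamate, had 9.90, 9.82 and 9.70 on L1 arrays, against 6.85, 6.78 and 6.69 on embryo arrays. It rose by 3.03 (SE 0.09, adjusted p = 8.93e-10), an 8.18-fold difference and the largest of the 10 genes. *unc-47*, the vesicular GABA transporter gene, had 7.92, 7.43 and 7.75 on L1 arrays, against 6.27, 6.25 and 5.998 on embryo arrays. It rose by 1.53 (SE 0.13, adjusted p = 2.50e-06), a 2.88-fold difference. Each has 1 probe set and lies on chromosome III, with no overlapping protein-coding gene in the annotation.

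The gap between these GABA genes was wider in L1 on every array. The within-array difference *unc-47* minus *unc-25* was -2.11 ± 0.25 in L1 and -0.60 ± 0.08 in embryos (SD, n = 3 per stage), so the change of *unc-47* minus that of *unc-25* was -1.51, and -1.59 to -1.36 when single arrays were left out. The stages did not overlap in this difference (exact permutation p = 0.1, the smallest possible; adjusted p = 0.133 over 8 pairs of genes). *unc-46*, whose product brings UNC-47 to synaptic vesicles, had means of 7.38 ± 0.12 in L1 and 6.32 ± 0.18 in embryos and rose by 1.06 (SE 0.11, adjusted p = 1.07e-05), and its other probe set gave 0.51.

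Among the monoamine genes, the decarboxylase gene *bas-1* had the largest rise. BAS-1 carries out the last step in the synthesis of both dopamine and serotonin. Its values were 9.23, 9.24 and 9.26 on L1 arrays, against 6.54, 6.72 and 6.86 on embryo arrays. It rose by 2.53 (SE 0.10, adjusted p = 4.91e-09), a 5.79-fold difference. The hydroxylases TPH-1 and CAT-2 act before it. *tph-1*, whose product starts serotonin synthesis, had 6.20, 5.97 and 5.85 on L1 arrays, against 5.01, 5.45 and 5.27 on embryo arrays. It rose by 0.77 (SE 0.13, adjusted p = 0.000411), a 1.70-fold difference, with 2 of its embryo arrays at or under the background level.

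*cat-2*, whose product starts dopamine synthesis, was read at background. Its values were 5.39, 5.42 and 5.47 on L1 arrays, against 5.19, 4.94 and 5.03 on embryo arrays. All embryo arrays and 2 L1 arrays were at or under 5.43. The difference of 0.38 (SE 0.09, adjusted p = 0.00475) passed the test, but it was 0.03 with ribosomal protein centring (adjusted p = 0.833), and the median shift of the foreign controls was 0.06. A change of *cat-2* RNA above background was thus not detectable on these arrays.

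*cat-1* encodes the vesicular monoamine transporter, used by serotonin, dopamine, tyramine and octopamine neurons alike. It had 7.497, 7.06 and 7.32 on L1 arrays, against 6.16, 6.34 and 6.40 on embryo arrays. *cat-1* rose by 0.99 (SE 0.12, adjusted p = 3.51e-05), a 1.99-fold difference read by 1 probe set that can match related transcripts. This rise was smaller than that of *bas-1*: the within-array difference *cat-1* minus *bas-1* was -1.95 ± 0.22 in L1 and -0.41 ± 0.05 in embryos (SD, n = 3 per stage; exact permutation p = 0.1, adjusted p = 0.133). The change of *cat-1* minus that of *tph-1* was 0.23, and the stages overlapped (exact permutation p = 0.3). Pairs with *cat-2* are not read, since it lay at background.

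*tdc-1* was the only gene of the group whose main probe set was lower in L1, and its 3 probe sets did not go the same way. TDC-1 makes tyramine, which is a transmitter of escape behaviour and the precursor of octopamine. The main probe set had 6.89, 6.78 and 6.87 on L1 arrays, against 8.00, 7.73 and 7.97 on embryo arrays. It fell by 1.05 (SE 0.10, adjusted p = 4.24e-06), with L1 at 0.482 times the embryo level. The next brightest probe set of *tdc-1* had 7.43, 7.78 and 7.30 on L1 arrays, against 5.81, 5.86 and 6.08 on embryo arrays. Here *tdc-1* was higher by 1.59, a 3.01-fold difference (adjusted p = 1.58e-06 with this probe set in place of the main one, a choice made with its values known). The third had 4.42, 4.32 and 4.40 on L1 arrays and 5.31, 5.26 and 5.07 on embryo arrays, all under the background level. The mean of the 3 probe sets differed by -0.10 and did not pass (adjusted p = 0.315).

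**Figure D2:**
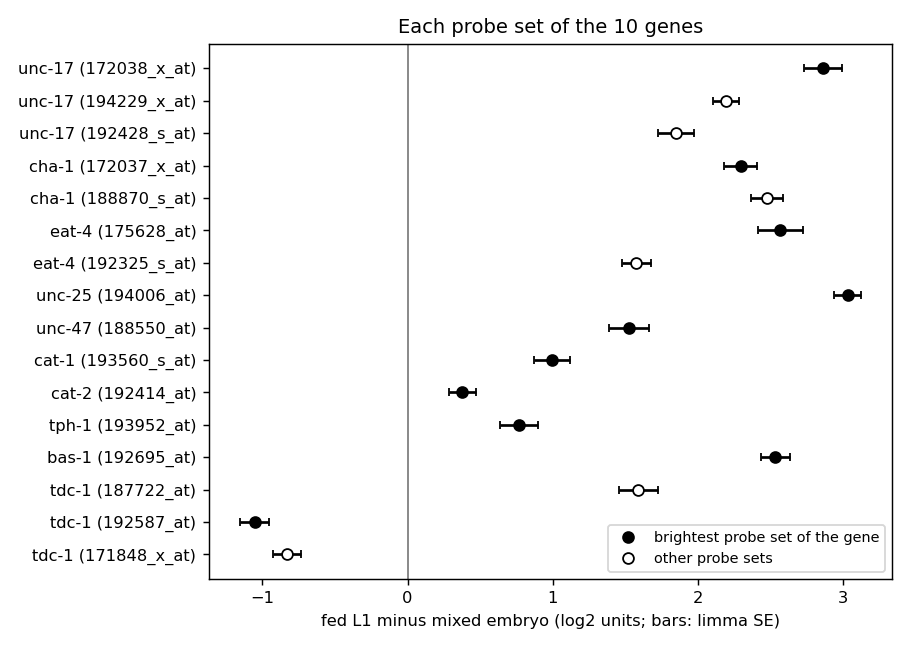
Difference between fed L1 and mixed embryo in log2 units for each of the 16 probe sets of the 10 genes, with limma's standard error (n = 3 per stage); filled points are the brightest probe set of a gene. A total of 14 probe sets lie above 0, and both that lie below it belong to *tdc-1*, whose remaining probe set rose by 1.59.

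The gene body of *tdc-1* overlaps that of *gei-14* on chromosome II in the WBcel235 annotation. The *gei-14* probe set had 4.30, 4.49 and 4.40 on L1 arrays, against 7.35, 6.53 and 7.05 on embryo arrays. *gei-14* fell by 2.58 (SE 0.18, limma adjusted p = 5.38e-07 over probe sets), in the same direction as the main probe set of *tdc-1*. All L1 values of *gei-14* were under the background level, so the size of that fall is uncertain. Whether the probe sets of *tdc-1* detect *gei-14* RNA was not tested. *tph-1* also overlaps a neighbour, *ZK1290.10*, whose probe set rose by 0.49 (SE 0.10, limma adjusted p = 0.00126 over probe sets). All embryo values of *ZK1290.10* were under the background level, so the size of that rise is uncertain too.

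The contrast between the amine decarboxylase genes depended on the *tdc-1* probe set in size and not in direction. *bas-1* minus *tdc-1* was 2.39 ± 0.06 in L1 and -1.19 ± 0.24 in embryos (SD, n = 3 per stage), so the changes differed by 3.59, and by 0.94 with the next brightest *tdc-1* probe set (exact permutation p = 0.1 for both). For *cat-1* against *tdc-1*, the difference in change was 2.05 with the main probe set and -0.60 with the other. Of the 8 pairs of genes compared, 6 did not overlap between stages, *cat-1* with *cat-2* among them, and none could pass an adjusted p of 0.05 in this design.

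**Figure D3:**
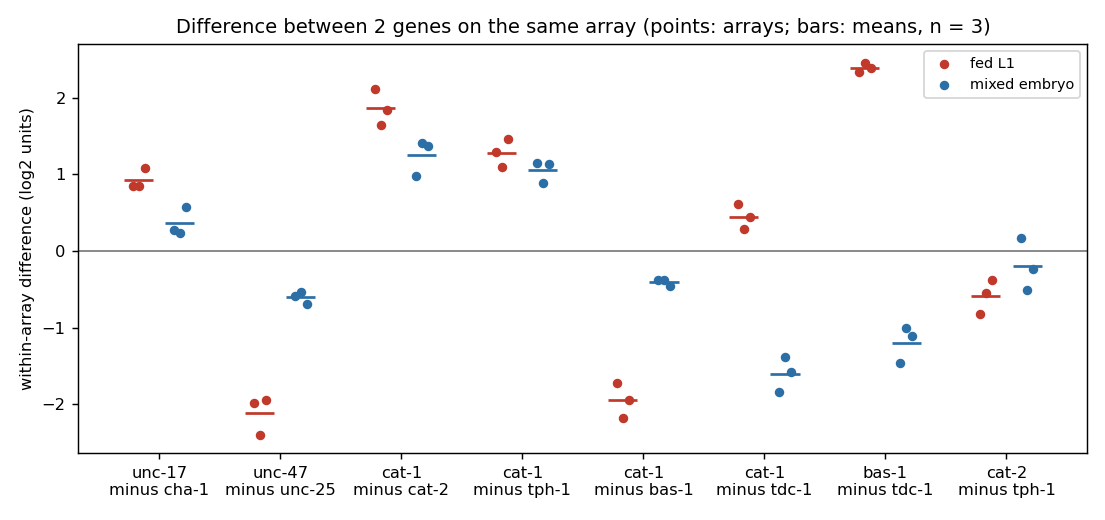
Within-array difference between the main probe sets of 2 genes (log2 units) for 8 pairs, with fed L1 at the left and mixed embryo at the right of each pair, points for arrays and bars for means of 3. Only the shift between stages can be read, since probe sets differ in brightness; it is 3.59 for *bas-1* minus *tdc-1* and -1.51 for *unc-47* minus *unc-25*.

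Genes that return transmitters or their precursors to cells were mostly higher in L1. Among 11 reuptake genes 10 rose and 1 did not pass, and the median difference was 1.33. Of all genes, 33.2% were higher and 31.2% lower. The glutamate transporter gene *glt-1*, which acts mainly outside neurons, had the largest rise of the list, with means of 11.13 ± 0.10 in L1 and 6.72 ± 0.15 in embryos (SD, n = 3 per stage), a rise of 4.41 (SE 0.10, adjusted p = 1.87e-10). The betaine transporter gene *snf-3*, the choline transporter gene *cho-1* and the dopamine transporter gene *dat-1* rose by 2.84, 2.54 and 2.34. *cho-1*, which supplies choline to acetylcholine synthesis, had means of 8.52 in L1 and 5.98 in embryos. *dat-1*, which marks dopamine neurons like *cat-2*, had 8.13 ± 0.04 in L1 and 5.78 ± 0.24 in embryos, both above background.

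Among the other reuptake genes, *glt-3* rose by 1.39 and *glt-5* by 1.33, the latter of uncertain size with its embryo arrays at background. The GABA transporter gene *snf-11* rose by 1.10, *glt-7* by 0.68 and *glt-6* by 0.45, while *glt-4* differed by 0.21 and did not pass. The serotonin transporter gene *mod-5* was at background on all arrays. Its difference of 0.25 passed (adjusted p = 0.0274) but did not with quantile normalization or median centring (0.16 and 0.18), with ribosomal protein centring (-0.10), or without L1 replicates 1 or 2 or embryo replicates A or B (0.22 to 0.25). *glt-6* was lost with ribosomal protein centring (0.10).

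Genes of transmitter breakdown were less uniform. Among the 8 measured, 5 rose and 2 fell (62.5% and 25%, against 33.2% and 31.2% of all genes). Another 1 missed the threshold, and the median was 0.61. The *comt* genes were not analysed here. The GABA transaminase gene *gta-1* had means of 10.36 ± 0.05 in L1 and 9.06 ± 0.36 in embryos and rose by 1.31 (SE 0.16, adjusted p = 2.81e-05). The monoamine oxidase gene *amx-2* rose by 1.45, while *amx-1*, a relative of LSD-type histone demethylase genes, fell by 1.67 and *amx-3* fell by 0.59. The acetylcholinesterase genes *ace-4*, *ace-1* and *ace-2* rose by 0.73, 0.64 and 0.57, with all embryo arrays at background for each. L1 arrays were at background as well, all of them for *ace-2* and 2 for *ace-1*, so the sizes of these rises are uncertain. *ace-4* differed by 0.04 and 0.11 in its other probe sets, and *ace-2* by 0.22 with ribosomal protein centring (adjusted p = 0.0532). *ace-3* differed by 0.20 (SE 0.18) and did not pass; without L1 replicate 2 it differed by 0.40 and passed.

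Enzymes of cofactors and of further transmitter steps moved in both directions. *pah-1* and *glna-1* were not analysed here. Among the 15 measured, 8 rose and 3 fell (53.3% and 20%, against 33.2% and 31.2% of all genes). A further 4 missed the threshold, and the median was 0.27. *cat-4*, the GTP cyclohydrolase gene whose product starts synthesis of the tetrahydrobiopterin used by the CAT-2 and TPH-1 enzymes, had means of 9.30 ± 0.06 in L1 and 6.54 ± 0.18 in embryos. It rose by 2.76 (SE 0.11, adjusted p = 4.45e-09), against 0.77 for *tph-1*. Other genes of the same cofactor differed from it: *qdpr-1* rose by 0.87, *pcbd-1* fell by 1.43 and *ptps-1* differed by -0.18 without passing. *tbh-1*, whose product turns tyramine into octopamine, had means of 6.37 in L1 and 5.47 in embryos and rose by 0.90 (SE 0.12, adjusted p = 7.42e-05).

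Genes that interconvert glutamate and glutamine were among those that moved most on this list. The glutaminase genes *glna-2* and *glna-3* rose by 2.54 and 1.20. The glutamine synthetase genes *gln-6* and *gln-5* went the other way: *gln-5* fell by 2.67 and *gln-6* fell by 3.67, with *gln-6* at 7.87 ± 0.23 in L1 and 11.54 ± 0.18 in embryos (SD, n = 3 per stage), and *gln-1* rose by 0.96. The rises of *gln-2* and *gln-3*, 0.36 and 0.27, were lost with median centring (0.29 and 0.20) and with ribosomal protein centring (0.01 and -0.08), and without L1 replicates 2 or 3 or embryo replicates B or C for *gln-2* (0.24 to 0.35) and L1 replicate 1 or embryo replicate C for *gln-3* (0.23 and 0.25). *anat-1*, *hdl-1* and *hdl-2* differed by -0.19, 0.22 and -0.07 and did not pass, the last 2 at background. *hdl-1* passed without embryo replicate B (0.27).

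Of 6 genes of vesicular sorting, vesicle transport and related transporters, 2 rose and 1 fell, 3 missed the threshold and the median was 0.08. The share that rose, 33.3%, was near that of all genes, 33.2%, and 16.7% fell, against 31.2% of all genes. *unc-104*, the kinesin gene for synaptic vesicle precursors, had means of 9.22 ± 0.09 in L1 and 7.97 ± 0.20 in embryos and rose by 1.25 (SE 0.12, adjusted p = 3.40e-06), and *unc-46* is given above. The kinesin-1 genes *unc-116* and *klc-2*, used in many cell types, differed by 0.14 and -0.11. *vglu-2* and *vglu-3*, relatives of *eat-4*, differed by -0.26 and 0.01. Only *vglu-2* passed (adjusted p = 0.0473), a call lost without L1 replicates 1 or 3 or embryo replicates B or C (-0.30 to -0.19), without dim genes and with a trended and robust eBayes.

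**Figure D4:**
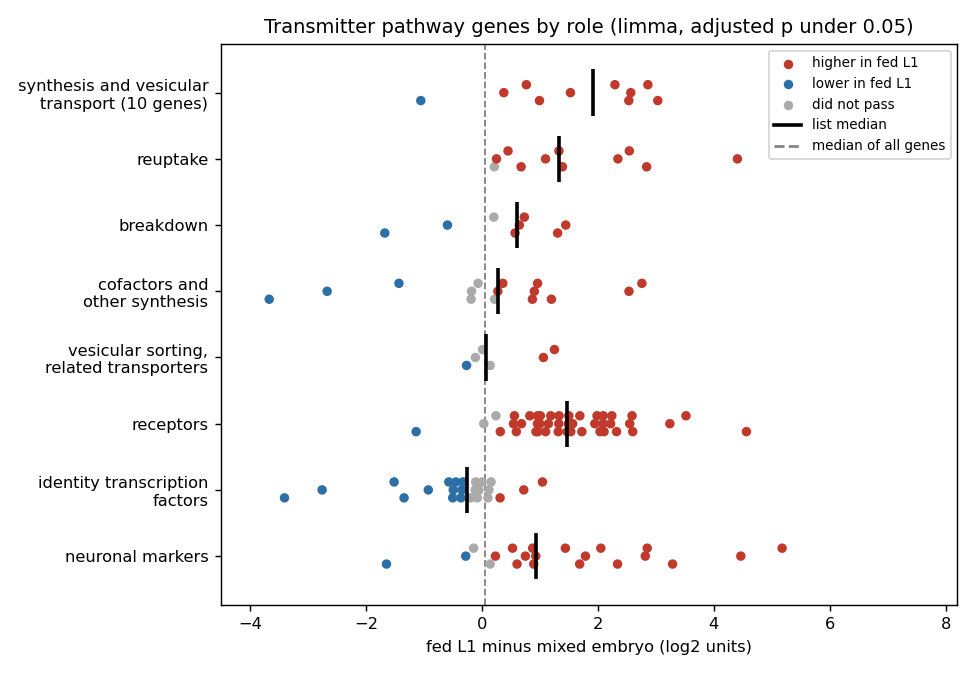
Difference between fed L1 and mixed embryo (log2 units) of each gene in the transmitter group and in 7 further lists, with red and blue for genes higher and lower in L1 by limma, grey for those that did not pass, black bars at list medians and a dashed line at the median of all genes, 0.05. Of the receptor genes 40 of 43 are red, and of the identity transcription factors 12 of 24 are blue.

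Receptors that respond to these transmitters were higher in L1 in 40 of 43 genes measured. A further 1 was lower and 2 missed the threshold, and the median was 1.47. These shares were 93.0% higher and 2.3% lower, against 33.2% and 31.2% of all genes. With ribosomal protein centring 35 were higher and 2 lower, against 3900 and 9686 of all 17118 genes. *exp-1*, counted as higher (0.32), was at background on all arrays. Its call was lost with that centring (-0.04), with quantile normalization and median centring (0.24 for both), and without L1 replicates 2 or 3 or embryo replicate C. The largest rise was that of *glc-1*, a glutamate-gated chloride channel gene, with means of 9.57 ± 0.06 in L1 and 5.01 ± 0.08 in embryos (SD, n = 3 per stage). It rose by 4.56 (SE 0.09, adjusted p = 8.06e-11), of uncertain size since its embryo arrays were at background. The serotonin receptor gene *ser-4* rose by 3.52 (SE 0.10), while its other probe set was under the background level, at 4.39 in L1 and 4.40 in embryos. The nicotinic receptor subunit gene *lev-8* fell by 1.13 (SE 0.14, adjusted p = 3.56e-05). All embryo arrays were at background for 20 of the 43 receptors and for 1 of the 10 transmitter genes, *cat-2*. The same held for 6904 of all 17118 genes, so it was not particular to receptors.

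Transcription factors that select transmitter identity did not rise as a group. Among the 24 measured, 3 rose and 12 fell, 9 missed the threshold and the median was -0.26. These shares were 12.5% higher and 50% lower, against 33.2% and 31.2% of all genes. *ceh-43*, which acts in dopamine neurons and in the embryonic epidermis, had means of 6.998 ± 0.18 in L1 and 10.40 ± 0.17 in embryos (SD, n = 3 per stage) and fell by 3.40 (SE 0.12, adjusted p = 2.39e-09). *ceh-36*, a sensory neuron homeobox gene, fell by 2.76 (SE 0.10). The touch neuron gene *mec-3* rose by 1.04 (SE 0.10), and the motor neuron gene *unc-4* by 0.72 (SE 0.20), which was 0.37 and did not pass with ribosomal protein centring. *unc-3*, the selector of cholinergic motor neurons that acts on *unc-17* and *cha-1*, differed by -0.08 (SE 0.09) and did not pass, and by -0.47 as the mean of its probe sets, which passed. *unc-30*, which acts on *unc-25* and *unc-47* in GABAergic motor neurons, differed by -0.36 (adjusted p = 0.017), a call lost without L1 replicates 1 or 3 or embryo replicate B (-0.32 to -0.29), with quantile normalization (-0.24) and with probe sets free of matches to related sequences (-0.28).

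Markers of neurons at large were also mostly higher in L1. Among 21 of them 17 rose and 2 fell (81.0% and 9.5%, against 33.2% and 31.2% of all genes), and the median was 0.93. *unc-31* and *rgef-1*, counted among the rises, were at background on all arrays. The *unc-31* difference of 0.23 lost its call with quantile normalization (0.14), median centring (0.16) and ribosomal protein centring (-0.12). It was also lost without dim genes, without any single L1 replicate and without embryo replicates B or C. The peptide-processing enzyme genes *egl-3* and *egl-21* had the largest rises, 5.18 and 4.46, and *unc-119* fell by 1.65. *unc-11*, which acts in vesicle recycling, differed by -0.28 on its main probe set (adjusted p = 0.0465). As the mean of its probe sets, most of which rose, it was instead higher by 0.23 (limma adjusted p = 0.0313). The call of the main probe set was lost without L1 replicates 1 or 3 or embryo replicates B or C (-0.29 to -0.18). It was also lost with quantile normalization (-0.11), with weights for arrays and with a trended and robust eBayes. *unc-25*, *unc-17*, *eat-4*, *bas-1* and *cha-1* had differences of 2.29 to 3.03, above the neuronal median. *unc-47* and *cat-1*, at 1.53 and 0.99, also lay above it. *cat-2*, *tph-1* and the main probe set of *tdc-1* (-1.05) lay below it, and the next brightest *tdc-1* probe set (1.59) above. No test set the transmitter genes against these markers.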

How the data were processed

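Values were the series' deposited table of log2 expression values, 1 per probe set and array. The authors made them with RMA, per the submitters' processing notes; its version, and whether all 6 arrays were normalized together, are not given in the sources used here. Of 22625 probe sets, 77 controls were left out and 22548 kept. Gene names came from the platform annotation: 20766 probe sets named 1 gene, 887 several (not used) and 895 none. Limma 3.58.1 (R 4.3.3; lmFit, eBayes, 2-sided) was fitted to 17118 genes. Pairs of genes were compared by exact permutation over arrays. The WBcel235 annotation gave chromosome names and overlapping genes only. The limma step was tested on simulated data. The number of arrays limits precision.

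The genes, lists and tests were chosen with earlier results of these data known. All 10 transmitter genes and every gene of the reuptake, breakdown, cofactor and vesicular sorting lists that was measured are named; in the receptor, transcription factor and marker lists, the 2 largest called differences in each direction were to be named, here for receptors, transcription factors and neurons. *unc-3*, *unc-30*, *unc-31*, *rgef-1*, *exp-1* and the genes overlapping *tdc-1*, *tph-1* and *eat-4* were added after their values were seen. Planned protein and promoter comparisons were not made, since no sequences were used here. Alternatives were further quantile normalization, centring on array medians or on ribosomal protein genes, leaving out dim genes, a trended and robust eBayes, weights for arrays, other choices of probe set and leaving out each array.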

Additional observations from a re-analysis of the deposited data

How the results depend on the processing

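All 10 genes kept their direction under the other scalings, filters, variance settings and left-out arrays, with the mean of probe sets, and with probe sets free of matches to related sequences; *unc-17*, *cha-1* and *cat-1* have none of the last kind. *cat-2* lost its call with ribosomal protein centring (0.03), and *tdc-1* with the mean of its probe sets (-0.10), which left 0 members lower instead of 1. The exception was the next brightest *tdc-1* probe set (a choice made with its values known), with which *tdc-1* was higher by 1.59, 0 members were lower, and the change of *cat-1* minus that of *tdc-1* was -0.60. With the mean of probe sets the change of *unc-17* minus that of *cha-1* was -0.084. The differing values of a gene's probe sets produce these shifts. Of 107 other pathway genes, 68 were higher and 19 lower, with 65 to 67 and 16 to 20 when single arrays were left out. With ribosomal protein centring 56 were higher and 31 lower, a shift common to all genes. Over all genes, that centring gave 3900 higher and 9686 lower, against 5685 and 5339. No paired analysis was possible because the embryo arrays carry letters and the L1 arrays numbers, so no replicate labels are shared. Signal near 5.43 limits *cat-2*, *tph-1* and many receptors.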
